A study of Mus musculus with 8 samples.

Results

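The collagen genes described here are the 40 genes whose name in the array files is Col, a number, a and a number, such as Col1a1. They were taken by name alone, out of 31719 genes on the array, and are read by 59 probes on 68 spots. Of the 40, 11 encode fibrillar collagens, 8 encode collagens of basement membranes and 21 belong to other classes. RNA came from satellite cells, which are muscle stem cells, of a fast hindlimb muscle, the extensor digitorum longus (EDL). The donors were 8 week old Dnmt3a-KO mice and wild-type (WT) littermates, all labelled male. Cells of both genotypes were grown for 5 days, replated at equal cell number, and kept in differentiation medium, in which their progeny fuse into myotubes, for 2, 4, 5 or 6 days. Dnmt3a encodes a de novo DNA methyltransferase, and the allele, and the cells in which it was deleted, are not given in the sources used here. Each genotype had 1 one-colour (Cy3) Agilent array on each day, so there were 8 arrays, 4 per genotype, and no genotype and day was repeated.

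Collagens are the main structural proteins of the matrix around muscle fibres. Each molecule winds 3 alpha chains, encoded by 1 or several genes, into a helix that needs a glycine at the first place of every Gly-X-Y triplet. Fibrillar collagens (types I, III and V in muscle) form the fibrils of connective tissue. Type IV collagens form the sheet of the basement membrane that encloses each fibre and its satellite cells, and type VI links that sheet to the fibrils. In muscle, fibroblasts and fibro-adipogenic cells make most fibrillar collagen, and myogenic cells make basement membrane chains as well.

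The repeat that defines the family can be read in the array's own probes. The probes below, of 60 bases each, lie in the coding repeat of Col15a1 and Col25a1, and capitals mark the 6 glycine codons (GGN), which recur at a fixed spacing.
Col15a1: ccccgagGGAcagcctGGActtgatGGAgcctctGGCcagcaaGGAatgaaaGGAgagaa
Col25a1: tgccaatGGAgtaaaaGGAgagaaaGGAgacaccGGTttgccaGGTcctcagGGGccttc
On the build named in the file headers, mm9, the Col15a1 probe lies at chr4:47283786-47283845 and the Col25a1 probe at chr3:130270497-130270556, both on the plus strand. The first was well above background on 1 of 8 arrays and the second on 8. Both genes are also read by other probes, brighter on average over the 8 arrays, which gave the values used below. For Col15a1 the probe used was itself well above background on no array.

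A probe's level is given as signal, the intensity divided by the array's 75th percentile, so that 1 is the level of a fairly bright probe. Signals of different genes come from different probes and are not set against each other gene by gene. Sums over lists of marker genes, given further below, do add such signals, so bright probes weigh most in them. Of the 40 genes, 34 passed the filter, which asked for a signal well above background on 4 arrays or more, and were tested, among 19647 genes tested in all, and 26 were above it on all 8. The 6 untested genes were Col4a3, Col6a6 and Col17a1, above background on 1, 1 and 2 arrays, and Col9a3, Col15a1 and Col28a1, above it on none by the probe used. No collagen spot was saturated. By class, 11 of 11 fibrillar, 6 of 8 basement membrane and 17 of 21 other genes were tested. Where genes had several probes, the brightest was used. For Col6a3, a chain of type VI collagen, no probe carries that name under the rule.

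Some facts of the arrays bear on every value. Between 61.6% and 67.4% of 43020 non-control spots per array were well above background. Both day 2 arrays lay on a slide of their own and were read on another scanner model with another software version, days 4 and 5 shared a slide and day 6 had another. Each genotype difference was therefore taken within a slide, while day 2 and slide cannot be told apart. Transcripts of the Y chromosome (Ddx3y, Eif2s3y, Kdm5d and Uty) were above background on both day 2 arrays only and Xist on the 6 later arrays only, against the label male, so day 2 differs from later days in these as well. Dnmt3a signal in Dnmt3a-KO was between 19.1% and 46.2% of WT on the same day. On the log2 scale its difference was -1.11, -2.34, -2.21 and -2.39 on days 2, 4, 5 and 6. Dnmt3a itself did not pass the genotype test described below (adjusted p = 0.1 in limma). By the Y chromosome and Xist transcripts, the cells of day 2 and those of the later days appear to come from different animals. Whether days 4, 5 and 6 used different animals or cultures is not in the labels. P-values measure the spread between days, which may come from the animals or be technical. In the genotype test it may also be a change of the genotype difference over differentiation, and these cannot be told apart. In these bulk cultures, fewer collagen-making cells and less collagen RNA per cell cannot be told apart.

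The first comparison asked how collagen RNA differs between Dnmt3a-KO and WT cells on each day. On days 4 and 6 most collagen genes were lower in the Dnmt3a-KO array. On day 5 their median difference was near 0 (0.02 in log2) with single genes well off it in both directions, and on day 2 the genes were mixed. On day 4, 11 of the 34 tested genes were at least 2-fold lower (3.07% of all genes tested were) and 1 was at least 2-fold higher (1.46% of all). On day 6, 8 were lower by that measure (1.88% of all) and 1 higher (1.3% of all). On day 5 there were 4 lower (1.82% of all) and 2 higher (0.906% of all). On day 2 there were 3 higher (1.88% of all) and 0 lower (1.14% of all). A single day has 1 array per genotype and no test.

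The same 7 genes were at least 2-fold lower on both days 4 and 6, against 0.998% of all genes tested. They were Col1a1, Col2a1, Col3a1 and Col5a3 of the fibrillar class, the basement membrane pair Col4a1 and Col4a2, and Col8a1, a short-chain collagen of vessel walls and other sheets. This pair of days was picked after the values had been seen. The median difference of the fibrillar genes (Dnmt3a-KO minus WT, log2) was 0.00, -1.23, 0.02 and -0.91 on days 2, 4, 5 and 6. For basement membrane genes it was 0.09, -0.60, -0.03 and -0.74, and for the other genes 0.32, -0.12, 0.05 and -0.35. All genes tested had medians of 0.01, -0.02, -0.05 and 0.02 on those days. The fibrillar median of day 2 is the value of Col11a1, at the floor on both arrays. That of day 4 is the value of Col2a1, not well above background in Dnmt3a-KO. With only genes above background on all 8 arrays, the fibrillar medians were 0.15, -1.53, 0.01 and -0.91. On day 4, 10 of 11 fibrillar, 6 of 6 basement membrane and 11 of 17 other genes were below 0, and on day 6 it was 10, 5 and 11, counting Col27a1 at 0.00 on day 6. Of all genes tested, 52.6% were below 0 on day 4 and 45.5% on day 6.

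**Figure D1:**
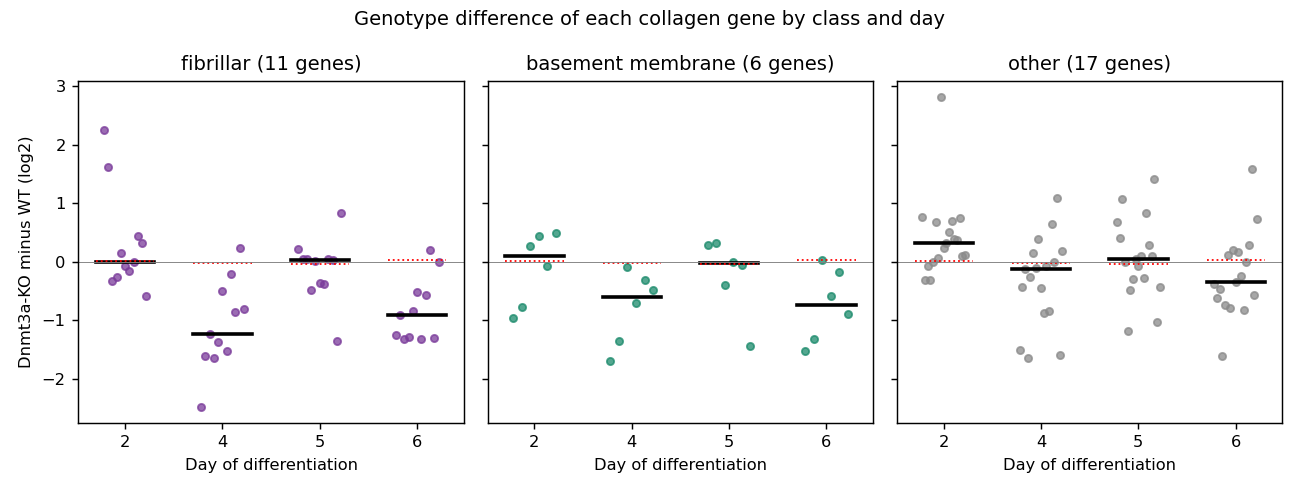
Genotype difference of each tested collagen gene (log2 signal, Dnmt3a-KO minus WT, vertical axis) on days 2, 4, 5 and 6, in 3 panels by class. Points are genes, black bars the class medians and red dotted bars the median of all genes tested. The fibrillar median lies at -1.23 on day 4 and -0.91 on day 6, and at 0.00 and 0.02 on days 2 and 5.

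Over the 4 days together, no collagen gene passed the test of genotype (limma with day as a block, adjusted p under 0.05 over all genes), while 0.0102% of all genes tested did. At an unadjusted p under 0.05 there were 11 of 34, against 12.9% of all genes tested, 9 of them lower and 2 higher in Dnmt3a-KO. The 9 lower were Col2a1, Col3a1, Col5a2, Col5a3, Col4a1, Col4a2, Col8a1, Col8a2 and Col23a1, with adjusted p-values from 0.30 to 0.38 in limma. The 2 higher were Col19a1 and Col22a1, at adjusted p-values of 0.37 and 0.11 in limma. Without day 4 or without day 6 this count was 2 (7.38% and 8.23% of all genes), and without day 2 or day 5 it was 8 and 9 (12.9% and 12.8% of all). It was 3 with the slide in place of the day as the block (11.8% of all), 6 by the deposited score (12.4% of all), 4 of 40 without the filter (9.39% of all) and 0 with no day block (2.05% of all). The difference had the same direction on all 4 days in 3 higher genes (10.9% of all genes tested) and 5 lower genes (11.5% of all), both shares near those of all genes. The 3 were Col10a1, Col20a1 and Col22a1, and the 5 were Col3a1, Col5a2, Col5a3, Col4a6 and Col8a1. Of these, another scaling turned the sign on day 5 for Col8a1 and Col4a6, which lay within 0.061 of 0 there, and background correction by normexp did so for Col20a1 on day 4. By the rounded deposited score, Col4a6 and Col22a1 were level on day 2, Col8a1 on day 5, and Col20a1 on days 4 and 5.

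**Figure D2:**
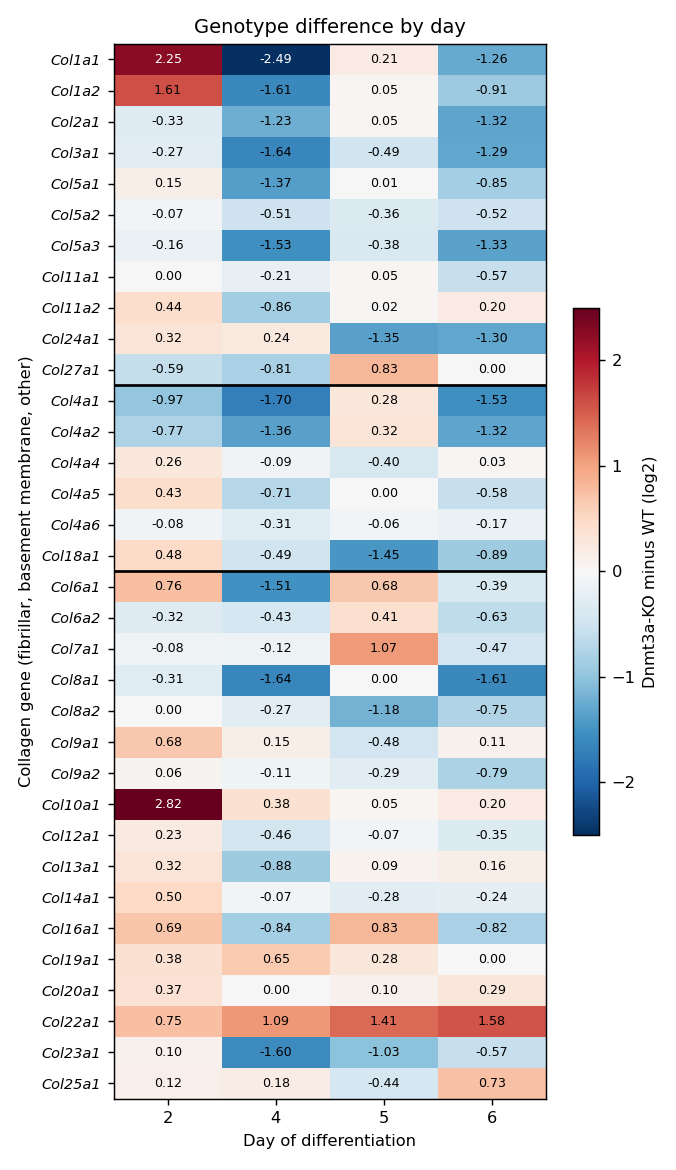
Genotype difference (log2 signal, Dnmt3a-KO minus WT) of the 34 tested collagen genes, 1 row per gene and 1 column per day, with black lines between fibrillar, basement membrane and other genes. Blue is lower and red higher in Dnmt3a-KO, and the colours stop at 2.5. The day 4 and day 6 columns are mostly blue among the upper 17 genes, and Col22a1 is red on each day.

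Type I collagen, the most abundant collagen of connective tissue, is built of 2 chains from Col1a1 and 1 from Col1a2. Col1a1 signal on days 2, 4, 5 and 6 was 0.123, 13.6, 21.3 and 12.3 in WT and 0.584, 2.42, 24.6 and 5.13 in Dnmt3a-KO. For Col1a2 the values were 24.5, 43.9, 64.5 and 40.5 in WT and 74.9, 14.4, 66.7 and 21.6 in Dnmt3a-KO. Both genes were higher in Dnmt3a-KO on day 2, lower on days 4 and 6, and nearly equal on day 5. The log2 differences were 2.25, -2.49, 0.21 and -1.26 for Col1a1 and 1.61, -1.61, 0.05 and -0.91 for Col1a2. Means over the days, -0.32 ± 2.0 and -0.22 ± 1.4 (SD, n = 4 days), were small against that spread, with an adjusted p of 0.88 for each in limma. Single days set these means, which were 0.40 and 0.25 without day 4 and -1.18 and -0.83 without day 2. The 2 chains parted in their course over the days, as described below.

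Type III collagen, from Col3a1, forms thin fibrils together with type I. Its signal was 6.01, 3.45, 6.64 and 5.12 in WT and 4.99, 1.11, 4.73 and 2.09 in Dnmt3a-KO, so that the Dnmt3a-KO array was the lower on each day. The difference averaged -0.92 ± 0.65 (SD, n = 4 days; adjusted p = 0.30 in limma), a 1.9-fold lower signal, and was 3.12-fold on day 4 and 2.45-fold on day 6.

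Type V collagen sits inside type I fibrils and sets their diameter. Col5a1 signal was 2.08, 4.39, 6.31 and 3.34 in WT and 2.31, 1.7, 6.36 and 1.85 in Dnmt3a-KO, lower only on days 4 and 6. Col5a2 signal, 0.957, 0.562, 0.749 and 0.586 in WT and 0.912, 0.394, 0.584 and 0.408 in Dnmt3a-KO, was lower on each day, by a mean of -0.36 ± 0.21 (SD, n = 4 days; adjusted p = 0.30 in limma). Col5a3, the remaining type V gene, had 0.762, 1.19, 1.77 and 1.21 in WT and 0.683, 0.413, 1.36 and 0.483 in Dnmt3a-KO. Its mean was -0.85 ± 0.68 (SD, n = 4 days; adjusted p = 0.33 in limma), and Col5a1 had -0.51 ± 0.72 (adjusted p = 0.50 in limma). Col3a1 and the 3 type V genes thus had their lowest Dnmt3a-KO signal on day 4 and their highest WT signal on day 5, except Col5a2, whose WT signal was highest on day 2.

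The minor fibrillar genes were dim. Col2a1 and Col11a1 belong to cartilage fibrils, and Col24a1 and Col27a1 encode late-found fibrillar chains. Col2a1 was 2.35-fold lower in Dnmt3a-KO on day 4 and 2.5-fold on day 6, where the Dnmt3a-KO probe was not well above background. Col24a1 was 2.54-fold and 2.47-fold lower on days 5 and 6, again with such a dim Dnmt3a-KO probe, and not lower on days 2 and 4. These are plain ratios over a dim signal and no lower limits. On day 4 the log2 difference of Col2a1, -1.23, was -1 by the deposited score and -0.09 with normexp. Col11a1, Col11a2 and Col27a1 differed by between -0.86 and 0.83 on the 4 days.

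Promoter sequence was available from RefSeq (GRCm38.p6) for 32 of the 40 genes, in 35 windows. Those not matched were Col1a1, Col2a1, Col4a3, Col5a2, Col9a3, Col12a1, Col14a1 and Col22a1. The 250 bases before the start of Col1a2, Col3a1 and Col5a3 are shown as examples from types I, III and V, chosen because each holds a motif marked here. The Col5a1 window, of another type V gene lower in Dnmt3a-KO on days 4 and 6, holds neither motif and has 28 CpG pairs. Capitals mark CCAAT, the box bound by nuclear factor Y, and TATAA, a core promoter motif, each searched on both strands. In Col3a1 the letters TTATAA hold TATAA on both strands, overlapping.
Col1a2: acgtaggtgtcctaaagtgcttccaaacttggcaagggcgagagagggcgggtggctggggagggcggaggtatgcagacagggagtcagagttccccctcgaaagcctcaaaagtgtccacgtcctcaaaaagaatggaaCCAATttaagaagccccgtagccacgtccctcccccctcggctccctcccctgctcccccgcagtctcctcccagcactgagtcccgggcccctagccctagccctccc
Col3a1: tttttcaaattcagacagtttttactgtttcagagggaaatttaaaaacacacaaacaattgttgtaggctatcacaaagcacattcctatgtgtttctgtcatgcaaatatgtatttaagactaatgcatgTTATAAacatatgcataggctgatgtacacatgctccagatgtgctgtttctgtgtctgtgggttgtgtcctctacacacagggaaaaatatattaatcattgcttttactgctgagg
Col5a3: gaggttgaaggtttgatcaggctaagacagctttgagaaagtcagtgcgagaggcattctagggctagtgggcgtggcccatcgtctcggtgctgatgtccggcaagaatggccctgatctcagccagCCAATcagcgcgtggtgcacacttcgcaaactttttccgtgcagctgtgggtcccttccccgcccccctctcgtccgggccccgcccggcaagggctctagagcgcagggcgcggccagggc
The windows are chr6:4505368-4505617 on the plus strand, chr1:45311288-45311537 on the plus strand and chr9:20815068-20815317 on the minus strand. CCAAT begins 109 bases before the Col1a2 start and 122 before the Col5a3 start. It was present in 12 of 35 collagen windows, 34.3%, against 33.8% of all 32851 windows of that length. TATAA was present in 20.0% against 22.8%, and CANNTG, the E-box that myogenic factors bind, in 51.4% against 66.2%. The number of CpG pairs, the substrate of DNA methyltransferases, was 11, 0 and 17 in the 3 windows shown, with a median of 10 over collagen windows and 6 over all. These counts describe the letters only, and methylation was not measured here.

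Type IV collagen of muscle basement membrane is mainly 2 chains from Col4a1 and 1 from Col4a2, which lie head to head on chromosome 8. Their RefSeq starts, on opposite strands, are 21 bases apart, and the 2 transcripts overlap over that stretch. The 250 bases before each start hold 31 and 26 CpG pairs. Col4a1 signal on days 2, 4, 5 and 6 was 2.91, 3.91, 6.43 and 4.71 in WT and 1.48, 1.20, 7.79 and 1.63 in Dnmt3a-KO. For Col4a2 it was 2.37, 3.64, 5.80 and 4.77 in WT and 1.39, 1.42, 7.23 and 1.90 in Dnmt3a-KO. The pair kept together: the differences were -0.97, -1.7, 0.28 and -1.53 for Col4a1 and -0.77, -1.36, 0.32 and -1.32 for Col4a2. On day 5 both were slightly higher in Dnmt3a-KO, and on the other 3 days both were lower. Means were -0.98 ± 0.90 and -0.78 ± 0.78 (SD, n = 4 days), with adjusted p-values of 0.36 and 0.38 in limma.

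The other type IV genes differed less. Col4a5 and Col4a6, which lie head to head on the X chromosome, averaged -0.22 ± 0.53 and -0.16 ± 0.11 (SD, n = 4 days), with adjusted p-values of 0.69 and 0.45 in limma. Col4a5 was 0.71 lower on day 4 and 0.58 lower on day 6 on the log2 scale, and Col4a4, a chain best known from kidney, stayed between -0.40 and 0.26.

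Col18a1, whose C-terminal end is released as endostatin, had signals of 18.1, 5.17, 5.28 and 8.54 in WT and 25.2, 3.68, 1.93 and 4.60 in Dnmt3a-KO. In Dnmt3a-KO it was higher on day 2 and lower on the 3 later days, and its lowest Dnmt3a-KO signal, 2.74-fold below WT, came on day 5, when types I, III, IV and V were closer to WT. Its mean was -0.59 ± 0.82 (SD, n = 4 days; adjusted p = 0.49 in limma). A second Col18a1 probe had the same sign on all 4 days, at 0.41, -0.57, -1.74 and -0.90. Col15a1, the related collagen of muscle basement membranes, was above background on no array by the probe used.

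**Figure D3:**
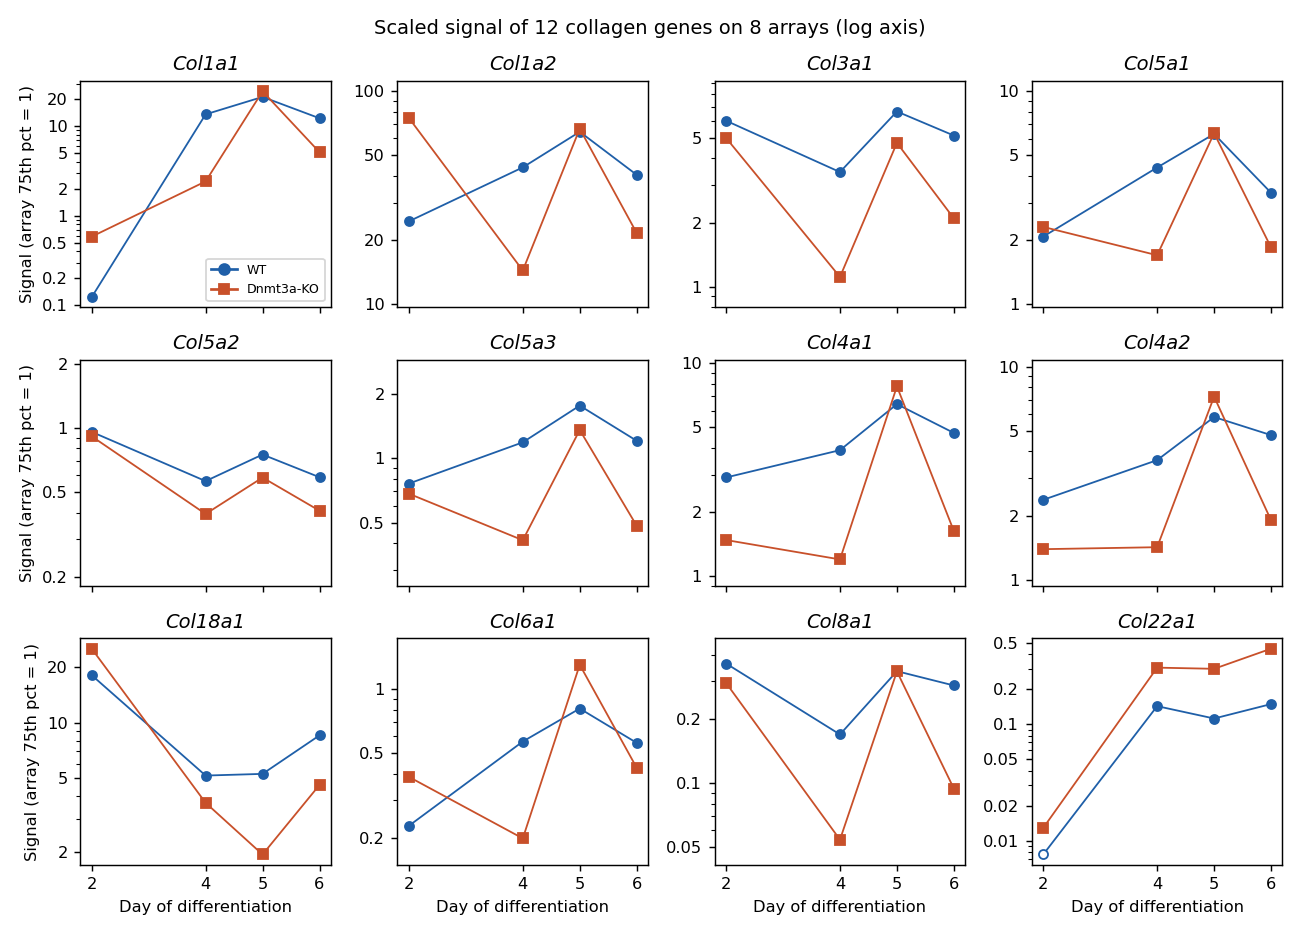
Signal (intensity over the array's 75th percentile, log axis) of 12 collagen genes against day, 1 point per array, with WT as blue circles and Dnmt3a-KO as orange squares. The open point is not well above background, and lines join arrays of 1 genotype and do not follow 1 culture. The Dnmt3a-KO points of Col3a1, Col4a1 and Col4a2 fall below WT on days 4 and 6 and near it on day 5, and those of Col22a1 lie above WT on each day.

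Col22a1 went the other way from most collagens. It encodes a fibril-associated collagen found at the myotendinous junction, the end of the fibre where it joins tendon. Its signal was 0.143, 0.112 and 0.149 in WT and 0.306, 0.299 and 0.445 in Dnmt3a-KO on days 4, 5 and 6. On day 2 the WT probe was not well above background and the Dnmt3a-KO signal was 0.0129. It was 1.32-fold above the detection floor of the WT array, its lowest signal called well above background. The 3 later days gave 2.13-, 2.66- and 3-fold higher signal in Dnmt3a-KO, with no overlap between the genotypes on those days. Over 4 days the difference was 1.21 ± 0.37 (SD, n = 4 days), higher on 4 of 4 days, with an adjusted p of 0.11 in limma, the smallest of any tested collagen gene. Without day 2 it was 1.36 (adjusted p = 0.14 in limma), and the deposited score, which is rounded to whole numbers, was level on day 2. It passed with a trended, robust variance (adjusted p = 0.046 in limma) and in none of the other 14 alternatives tried that could include it. The trended, robust fit called 93 of all 19647 genes tested, against 2 in the main fit. Col22a1 is read by 1 probe.

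Type VI collagen forms beaded filaments that tie the basement membrane to fibrils. Col6a1 signal was 0.228, 0.567, 0.810 and 0.559 in WT and 0.387, 0.199, 1.30 and 0.427 in Dnmt3a-KO, higher on days 2 and 5 and lower on days 4 and 6. Its partner Col6a2 was dim, between 0.040 and 0.109, and differed by -0.32, -0.43, 0.41 and -0.63. Means were -0.11 ± 1.1 and -0.24 ± 0.45 (SD, n = 4 days), with adjusted p-values of 0.93 and 0.61 in limma, and without day 4 the Col6a1 mean was 0.35.

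Among the other fibril-associated collagens, Col16a1 was higher in Dnmt3a-KO on days 2 and 5 and lower on days 4 and 6 (0.69, -0.84, 0.83 and -0.82). The 3 Col16a1 probes had the same sign on days 4, 5 and 6 and differed on day 2. Col12a1 and Col14a1, which coat type I fibrils in tendon and muscle, differed by at most 0.50 on any day, with means of -0.16 ± 0.31 and -0.02 ± 0.36 (SD, n = 4 days). Col19a1, a collagen of basement membrane zones expressed in developing muscle, averaged 0.33 ± 0.27 (SD, n = 4 days; adjusted p = 0.37 in limma). Col20a1 averaged 0.19 ± 0.17, and its second probe gave a mean of 0.59. Col9a1 and Col9a2, of cartilage, had means of 0.11 and -0.28.

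Col8a1, Col8a2 and Col10a1 encode short-chain collagens. Col8a1 had 0.364, 0.169, 0.335 and 0.287 in WT and 0.295, 0.0542, 0.334 and 0.0941 in Dnmt3a-KO, lower by 3.11-fold on day 4 and 3.05-fold on day 6 and level on day 5. Its mean was -0.89 ± 0.86 (SD, n = 4 days; adjusted p = 0.38 in limma). Col8a2, the partner chain of type VIII, was not well above background on either day 2 array by the probe used. By that probe it was at -0.27, -1.18 and -0.75 on days 4, 5 and 6. Its second probe was well above background on 7 arrays, all but Dnmt3a-KO on day 5. It was at 1.29, -0.26, -2.51 and 0.32 on days 2, 4, 5 and 6, so the 2 probes differed in sign on day 6. Col10a1, the collagen of hypertrophic cartilage, was 0.0593 in WT and 0.420 in Dnmt3a-KO on day 2, 7.08-fold higher, and within 0.38 of WT on the log2 scale later. This was the largest day 2 difference of any tested collagen gene. A second Col10a1 probe was above background on no array.

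Transmembrane collagens differed gene by gene. Col23a1 signal was 0.0233, 0.313, 0.344 and 0.213 in WT and 0.0249, 0.104, 0.168 and 0.144 in Dnmt3a-KO, level on day 2 and lower on the 3 later days. Its mean was -0.77 ± 0.72 (SD, n = 4 days; adjusted p = 0.36 in limma), and 3 probes gave means from -0.79 to -0.62. Col13a1, a collagen of the neuromuscular junction, was 1.84-fold lower on day 4, where the Dnmt3a-KO probe was not well above background. That is -0.88 on the log2 scale, against -0.585 by the deposited score. On the other days Col13a1 was within 0.32 of WT. Col25a1, needed for motor axons to enter muscle, was within 0.73 of WT on each day, and its 4 probes had the same sign on 2 of 4 days. Col7a1, the anchoring fibril of skin, was 2.1-fold higher on day 5 and within 0.47 on the other days.

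The second comparison asked how collagen RNA changes over the days of differentiation. The slope over days (log2 signal per day, adjusted for genotype) passed the threshold in 9 rising collagen genes, 26.5% of those tested against 25.9% of all genes. It passed in 3 falling ones, 8.82% against 19.5% of all. The largest fitted slopes were in Col1a1 at 1.40 ± 0.37 per day (SE; adjusted p = 0.023 in limma), Col22a1 at 1.17 ± 0.22 (0.012), Col11a1 at 0.91 ± 0.26 (0.029), Col23a1 at 0.77 ± 0.19 (0.019) and Col16a1 at 0.76 ± 0.16 (0.015). Col2a1, Col4a5, Col8a2 and Col12a1 also rose. For Col11a1 and Col8a2 on both day 2 arrays, and for Col22a1 on the WT day 2 array, the probe used was not well above background. These slopes thus depend on the floor of 0.00763 set for such signals. The second Col8a2 probe had 0.0154, 0.0417, 0.0436 and 0.0357 in WT on days 2, 4, 5 and 6. In Dnmt3a-KO it had 0.0378, 0.0349, 0.00763 and 0.0444, with no steady rise. Col13a1 fell by 0.52 ± 0.14 per day (adjusted p = 0.025 in limma), Col19a1 fell by 0.47 ± 0.068 (0.0097) and Col20a1 fell by 0.16 ± 0.038 (0.018).

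Day 2 bore on these calls, but a fit without it could not test them gene by gene. Over days 4, 5 and 6 alone, on 6 arrays, 0% of all genes passed rising and 0% falling in limma, 0 collagen genes among them. At an unadjusted p under 0.05 there were 3 of 34 collagen genes, against 8% of all. Some slopes kept their direction there. Col20a1 had -0.25 ± 0.058 per day (SE), against -0.16 with day 2, and Col19a1 -0.29 ± 0.14, against -0.47. Others were near 0, with Col23a1 at -0.02 ± 0.17 and Col11a1 at 0.08 ± 0.50. With the slide as a random block there were 2 collagen calls in place of 12, while calls over all 19647 genes went from 8918 to 1936. Without day 5 there was 1 collagen call, and 391 over all genes. Col1a1 shows the step: its mean log2 signal was 5.24 higher on days 4 to 6 than on day 2, while its slope over days 4 to 6 was 0.24 ± 0.54 per day (SE; adjusted p = 0.93 in limma). Col1a2, its partner chain, was 0.23 lower on the later days, with a slope of -0.03 ± 0.20 (adjusted p = 0.90 in limma). So the Col1a1 probe moved by far more than the Col1a2 probe between the same arrays, within 1 scaling. Col18a1 was 2.27 lower on days 4 to 6 than on day 2 (slope -0.52 ± 0.20, adjusted p = 0.065 in limma), and both its probes showed that step. Slide, scanner, software and the sex-linked transcripts changed with day 2 too, and their part in these steps cannot be told apart from that of the day.

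**Figure D4:**
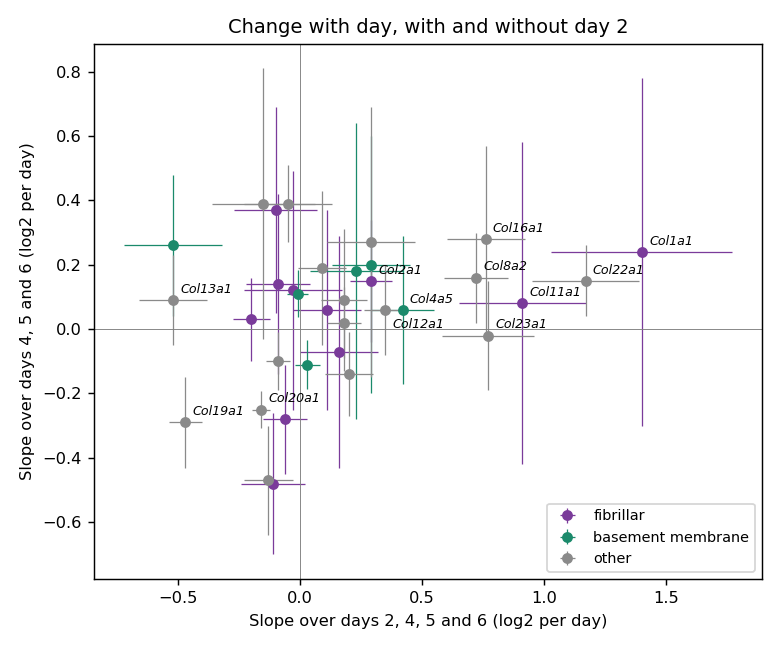
Slope of log2 signal per day of the 34 tested collagen genes over all 4 days (horizontal) and over days 4, 5 and 6 (vertical), with bars of 1 SE, coloured by class. The 12 named genes passed the threshold over 4 days. Col1a1 lies at 1.40 and 0.24 and Col20a1 at -0.16 and -0.25, and over days 4, 5 and 6 no gene on the array passed.

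The third comparison asked whether the change over days differs between the genotypes. No collagen gene passed the test of the interaction of genotype and day in limma, and 0% of all genes did. At an unadjusted p under 0.05 there were 2 of 34, against 1.11% of all genes tested. They were Col10a1 (-0.69 ± 0.26 log2 per day, SE) and Col9a2 (-0.19 ± 0.072), each with an adjusted p of 1 in limma. The model draws straight lines over days, so the alternation of days 4, 5 and 6 is not what it tests.

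The enzymes that make collagen were followed in 3 lists of other genes. In the list of folding and modification, 19 of 20 genes were tested and 0 passed the genotype test in limma, with 2 at an unadjusted p under 0.05 (12.9% of all genes). Its medians were -0.02, -0.21, 0.05 and -0.21 on days 2, 4, 5 and 6, and 15 of 19 genes were lower on day 4 and 15 on day 6 (52.6% and 45.5% of all). Among them Fkbp10, a collagen chaperone, was at -0.94 on day 4 and -0.88 on day 6, and Crtap and P3h3, of the prolyl 3-hydroxylation machinery, were at -0.90 and -0.91 on day 4. P4ha2, a prolyl 4-hydroxylase subunit, had the largest mean above 0, 0.29. Serpinh1, the collagen chaperone Hsp47, was lower by less, -0.38 and -0.56 on days 4 and 6.

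In the list of processing and crosslinking enzymes, 12 of 14 genes were tested and 0 passed in limma, with 0 at an unadjusted p under 0.05. Medians were 0.24, -0.35, 0.10 and -0.75, and 4 genes were at least 2-fold lower on day 4 and 4 on day 6 (3.07% and 1.88% of all). Adamts2, which removes the N-terminal propeptide of types I and III, was at -0.30, -3.13, -0.26 and -1.55. Its signal was 0.3, 0.508, 0.476 and 0.470 in WT and 0.244, 0.0579, 0.398 and 0.160 in Dnmt3a-KO, so it was low in the same 2 Dnmt3a-KO arrays as types I, III and IV. Pcolce2, an enhancer of C-propeptide removal, was at -0.42, -1.53, 0.48 and -1.73, and the lysyl oxidase relative Loxl2 at 1.24, -2.52, -0.53 and -1.47. Lox, the main crosslinking enzyme, was 1.57 higher on day 2 and within 0.44 of WT later. Among receptors and uptake genes, 7 of 10 were tested and 0 passed in limma, with 1 at an unadjusted p under 0.05. Itga11, the alpha chain of a fibrillar collagen receptor, was at 1.61, -2.21, -0.45 and -2.70, Mrc2, which takes up collagen, at 0.02, -1.07, 0.57 and -1.31, and Itga10 at 0.56, 0.61, 0.27 and 0.22.

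Some markers of other cells moved with these values and others did not. Of 12 fibro-adipogenic and fibroblast markers 10 were tested, and Lum and Dpt were above background on no array. The summed signal of the list was 1.38, 11.9, 22.2 and 13.8 in WT (range 1.38 to 22.2) and 1.73, 7.95, 28.3 and 10.6 in Dnmt3a-KO (range 1.73 to 28.3). It was thus lower in Dnmt3a-KO on days 4 and 6 and higher on days 2 and 5. The list's median differences were 0.41, -0.46, 0.14 and -0.35. Its members did not move as one: Thy1 was at 0.66, -1.76, -0.14 and -1.62, while Pdgfra, the defining receptor of fibro-adipogenic cells, was at 0.07 and 0.10 on days 4 and 6 and Dcn at 0.87 and -0.58. Of 6 smooth muscle and pericyte markers 5 were tested, with summed signals of 117 to 154 in WT and 105 to 119 in Dnmt3a-KO. Acta2 carried 94.8% to 99% of each sum and was at -0.05, -0.47, -0.36 and -0.15. The dimmer members went different ways: Pdgfrb was at 2.16, -1.88, 0.33 and -0.94, Cnn1 at -3.78 on day 4, and Rgs5 at -0.33 and 1.17 on days 2 and 4. Their part in the collagen values was not tested.

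Of 8 myogenic markers 7 were tested, Myf5 was above background on no array, and the summed signal was 243 to 300 in WT and 227 to 314 in Dnmt3a-KO. The median difference of the list was 0.09, -0.04, -0.13 and -0.13, and Myog was within 0.13 of WT on each day. At an unadjusted p under 0.05 there were 2 of 7 (12.9% of all genes). Pax7, which marks satellite cells, was at -0.41, -0.45, -1.42 and -0.68 and Cdh15 at -0.20, -0.04, -0.40 and -0.22, lower in Dnmt3a-KO on each day. Tendon and cartilage markers summed to 38.4 to 63.9 in WT and 33.5 to 76.7 in Dnmt3a-KO, with 5 of 6 tested and Tnmd above background on no array, and the tendon factor Scx alone carried 97.5% to 99% of each sum. Endothelial markers had 3 of 5 tested and sums of 2.32 to 3.97 against 2.47 to 3.91, with Tek above background on no array. Kdr alone carried 93.9% to 97.7% of each of these sums. Macrophage and leukocyte markers had 3 of 5 tested and sums of 0.271 to 1.1 against 0.271 to 1, with Cd68 and Lyz2 above background on no array. Csf1r alone carried 85.8% to 92.4% of each of those sums. Schwann cell markers had 4 of 4 tested, sums of 0.243 to 0.711 against 0.266 to 0.506, and a median difference of -1.30 on day 4.

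**Figure D5:**
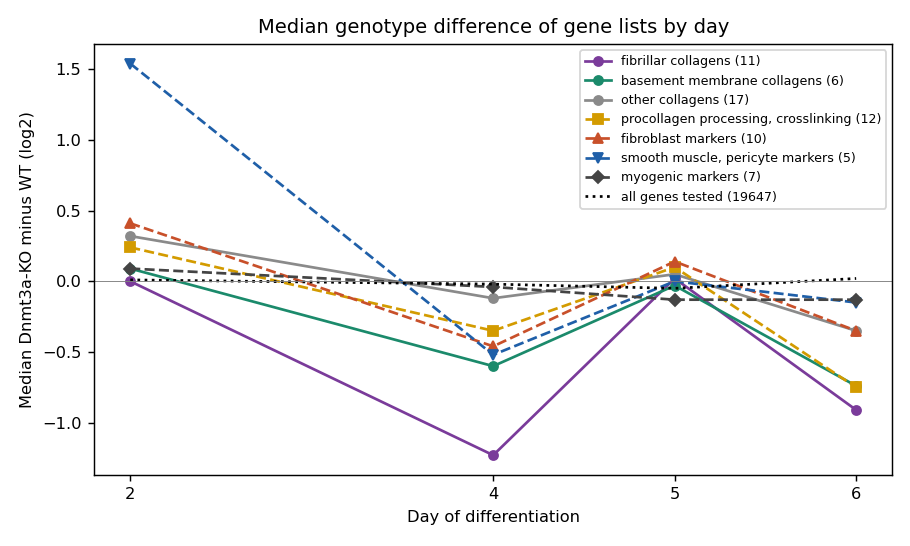
Median genotype difference (log2 signal, Dnmt3a-KO minus WT, vertical axis) of the 3 collagen classes, of processing and crosslinking enzymes and of marker lists on days 2, 4, 5 and 6, with the number of tested genes in brackets. Collagen classes, enzymes and fibroblast markers lie below 0 on days 4 and 6, and myogenic markers stay between -0.13 and 0.09.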

How the data were processed

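Cultured satellite cells were profiled on 8 one-colour Agilent arrays, 1 per genotype and day. Spot intensity was extracted with Feature Extraction 11.0.1.1 for day 2 and 9.5.3.1 for days 4, 5 and 6, per the file headers, while the submitters' processing notes name 9.5. The deposited value table holds a score that equals the processed intensity times 100 over each array's 75th percentile over all spots, rounded, with negatives at 0 and a column median of 6 on every array. It served as an alternative.

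Processed intensities were scaled to the 75th percentile of non-control spots on the same array, floored at 0.00763 (-7.03 in log2) and put on the log2 scale. Flagged outlier spots were left out and spots of a probe averaged. The brightest probe gave a gene's value. Genes above background on 4 or more of 8 arrays were tested with limma 3.58.1 in R 4.3.3 (lmFit, eBayes, Benjamini-Hochberg over all genes, threshold 0.05), with 3 residual degrees of freedom for genotype with a day block, 5 for the day slope and 4 for the interaction. Steps were tested on simulated data.

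Named in full were the main chains of types I, III, IV, V, VI, XII, XIV, XV and XVIII, genes past a threshold, and up to 5 per direction with the largest mean difference in 1 direction on all days or the largest slope past the threshold. For other lists, up to 3 genes per direction were taken by mean difference, and further ones after their values were seen. The members and lists were chosen with earlier results of these data known. Alternatives covered scaling, background, filter, probes, variance, weights, blocks, fold threshold and leaving out a day. Of the 59 probes, 56 matched RefSeq by accession. Probe positions are those in the files, and no annotation of their build was used, so probes were not placed in exons.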

Additional observations from a re-analysis of the deposited data

Results flagged for a closer look

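Both genes of type I collagen differed in opposite directions between days. Col1a1 was higher in Dnmt3a-KO by 2.25 on the log2 scale on day 2 and differed by -2.49 on day 4 and -1.26 on day 6. Col1a2 was higher by 1.61 on day 2 and differed by -1.61 on day 4. Each day has 1 array per genotype, so the difference between days was not tested for these days alone. The interaction of genotype and day, fitted as a slope, had an adjusted p of 1 in limma for both genes, with estimates of -0.74 ± 0.75 and -0.55 ± 0.38 log2 per day (SE). Day 2 came from another slide and scanner and other sex-linked transcripts than the later days, and what these contributed cannot be told apart from the day.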

How the results depend on the processing

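No collagen gene was called for genotype in the main setting or in 15 of its 16 alternatives, and 1, Col22a1 at 1.21, was called with a trended, robust variance. That setting called 93 of all 19647 genes tested, against 2 in the main setting. The interaction called 0 in the 13 alternatives run. The 12 slope calls became 6 with no filter on dim probes, 7 with genes above background on all arrays, 19 with array weights, whose fit stopped before converging, and 2 with the slide as a random block. Over all genes, 8918 of 19647 were called in the main setting. In the settings just named it was 7471 of 31719, 8096 of 17099, 13166 of 19647 and 1936 of 19647, in that order. Leaving out a day gave 0 to 14 collagen calls, and 0 to 9861 over all genes. Mean genotype differences changed sign for Col14a1 with median scaling (0.01) and Col13a1 with normexp (0.03). Leaving out a day gave -1.18 to 0.40 for Col1a1, -0.83 to 0.25 for Col1a2, -0.41 to 0.35 for Col6a1, -0.32 to 0.23 for Col16a1, -0.21 to 0.19 for Col13a1 and -0.20 to 0.06 for Col14a1. The normexp offset of 50 shrinks dim genes: the fibrillar median of day 4 became -0.28, and genes at least 2-fold lower became 7 on day 4, 1 on day 5 and 4 on day 6, with 0 higher on days 4, 5 and 6. At 1.5-fold, 7, 2, 5 and 2 genes were higher on days 2, 4, 5 and 6, and 3, 16, 4 and 15 were lower. On day 2, 1 was lower with median scaling and with the deposited score. Without the filter 2 were higher on day 6. With genes above background on all arrays 0, 1 and 0 were higher on days 4, 5 and 6, and 2 lower on day 5. The share of all genes was not computed for these counts by day, so they cannot be set against the whole array. The genotype test pairs the 2 arrays of a day through the day block, and with no day block 0 collagen genes were called as well. The number of arrays limits all of these values.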
